A study of Rattus norvegicus with 9 samples.

Results

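Spi1, Cebpa, Cebpb, Cebpd, Maf, Klf2, Klf4, Runx1 and Id2 encode transcription factors that set the identity of myeloid cells, and their transcripts were followed in cultured rat dendritic cells. The genes were chosen by name, and all 9 were found among the 20442 genes of the deposited table. The series sequenced RNA from primary bone marrow cells of rats. They grew in 10% serum with 20 ng/mL of GM-CSF and 20 ng/mL of IL-4, cytokines that turn marrow precursors into dendritic cells, the antigen-presenting cells of the immune system. Wild-type cells fell into 3 groups of 3 libraries: LPS+EVs, which received lipopolysaccharide (LPS, a bacterial endotoxin) together with extracellular vesicles (EVs) that the series title derives from ASCs; LPS, which received the endotoxin without vesicles; and Control, labelled as untreated. LPS was given at 1 µg/mL and the time was 24 h. The treatment text, worded alike for every sample, also holds a concentration of 50 ng/mL without saying of what, so the EV dose and the cultures this concentration refers to are not known here. Animal age, sex and strain are not given in the sources used here. The labels call the replicates biological without stating whether the rats differed, and the p-values cover no more than the variation among these 9 cultures.

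PU.1, the product of Spi1, opens chromatin at myeloid genes and works with C/EBP and RUNX proteins, while Maf, Klf2, Klf4 and Id2 steer cells among macrophage, monocyte and dendritic cell states. Most of this is known from mice. Endotoxin is sensed through Toll-like receptor 4 and changes which of these factors a cell makes, C/EBP beta being one that drives inflammatory genes.

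Assigned reads numbered 32148519 to 39407116 per library, as recovered from the deposited FPKM (fragments per kilobase of gene length, relative to the library total). Markers were checked over whole lists, as sums of FPKM per library. Those of 10 dendritic cell genes came to 1680 to 8660 FPKM in LPS+EVs, 1270 to 8300 FPKM in LPS and 2020 to 9730 FPKM in Control, of which Flt3, a receptor of conventional dendritic cells, had means of 0.0111 FPKM in LPS+EVs, 0.0571 FPKM in LPS and 0.0617 FPKM in Control. Those of 8 macrophage and monocyte genes came to 1540 to 1950 FPKM in LPS+EVs, 1280 to 1750 FPKM in LPS and 1200 to 1290 FPKM in Control. Both kinds of marker were thus present. The macrophage and monocyte genes did not share a direction. Cd14 (739 FPKM in LPS, 302 FPKM in Control), Cd68 and Adgre1 had higher means in LPS. Mrc1 (9.25 FPKM in LPS, 165 FPKM in Control), Csf1r, Fcgr1a, Mertk and Ccr2 had lower ones. Neutrophil markers (8 of 9 listed genes measured) came to 3.97 to 17.3 FPKM in LPS+EVs, 1.8 to 6.58 FPKM in LPS and 30.9 to 256 FPKM in Control, and stromal markers (7 genes) to 124 to 812 FPKM in LPS+EVs, 85.8 to 675 FPKM in LPS and 144 to 459 FPKM in Control. Erythroid markers (4 of 5 measured) came to 3.7 to 8.91 FPKM in LPS+EVs, 5.18 to 9.85 FPKM in LPS and 54.3 to 437 FPKM in Control. Prtn3, a granule protease of neutrophil precursors, and Alas2, the erythroid enzyme of haem synthesis, were at 0 in every LPS+EVs and LPS library. Their Control means were also close to 0, at 0.0325 FPKM for Prtn3 and 0.00467 FPKM for Alas2, so they barely separate the groups. Summed markers of mast cells (5 genes) and of B cells (3 of 5 measured) stayed at or under 1.52 FPKM in every library, and those of T and NK cells (3 of 6 measured) at or under 0.911 FPKM in LPS+EVs and 0.803 FPKM in LPS but at 1.69 to 9.93 FPKM in Control. This Control sum was mostly Cd8a, with a Control mean of 5.97 FPKM, against 0.258 FPKM for Nkg7 and 0 FPKM for Cd3d. Of the 10 dendritic cell genes Cd74 had the highest mean, 3010 FPKM in LPS+EVs, 2754 FPKM in LPS and 3403 FPKM in Control. Others differed in both directions, such as RT1-Da (352 FPKM in LPS, 697 FPKM in Control) and Ccr7 (235 FPKM in LPS, 72.5 FPKM in Control). The library numbered 2 stood apart in every group, with the highest dendritic cell sum and the lowest stromal sum of its group. The part of these other cells in the results was not tested, and in bulk RNA fewer cells of a type cannot be told apart from less RNA per cell.

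In Control the 9 factors spanned from 233 ± 46.3 FPKM for Cebpb to 1.26 ± 0.769 FPKM for Klf2 (mean ± SD, n = 3, as for every group). Id2 at 128 ± 22.9 FPKM and Spi1 at 86.3 ± 10.9 FPKM followed Cebpb, and the Control libraries of these 3 genes did not overlap. Cebpa (34.7 ± 8.06 FPKM), Klf4 (30.4 ± 9.59 FPKM), Cebpd (26.3 ± 5.81 FPKM) and Runx1 (21.2 ± 0.675 FPKM) formed a middle tier in which each gene's libraries overlapped those of the next. Maf stood lower at 5.1 ± 2.13 FPKM, above every library of Klf2. These levels are per length. The length implied by the Maf values was 15.4 kb, against 0.733 to 6.32 kb for the other 8 genes, so Maf had 594 to 4272 reads per library although its FPKM was low. Klf2 rested on 24 to 130 reads per library, the fewest of the 9.

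**Figure D1:**
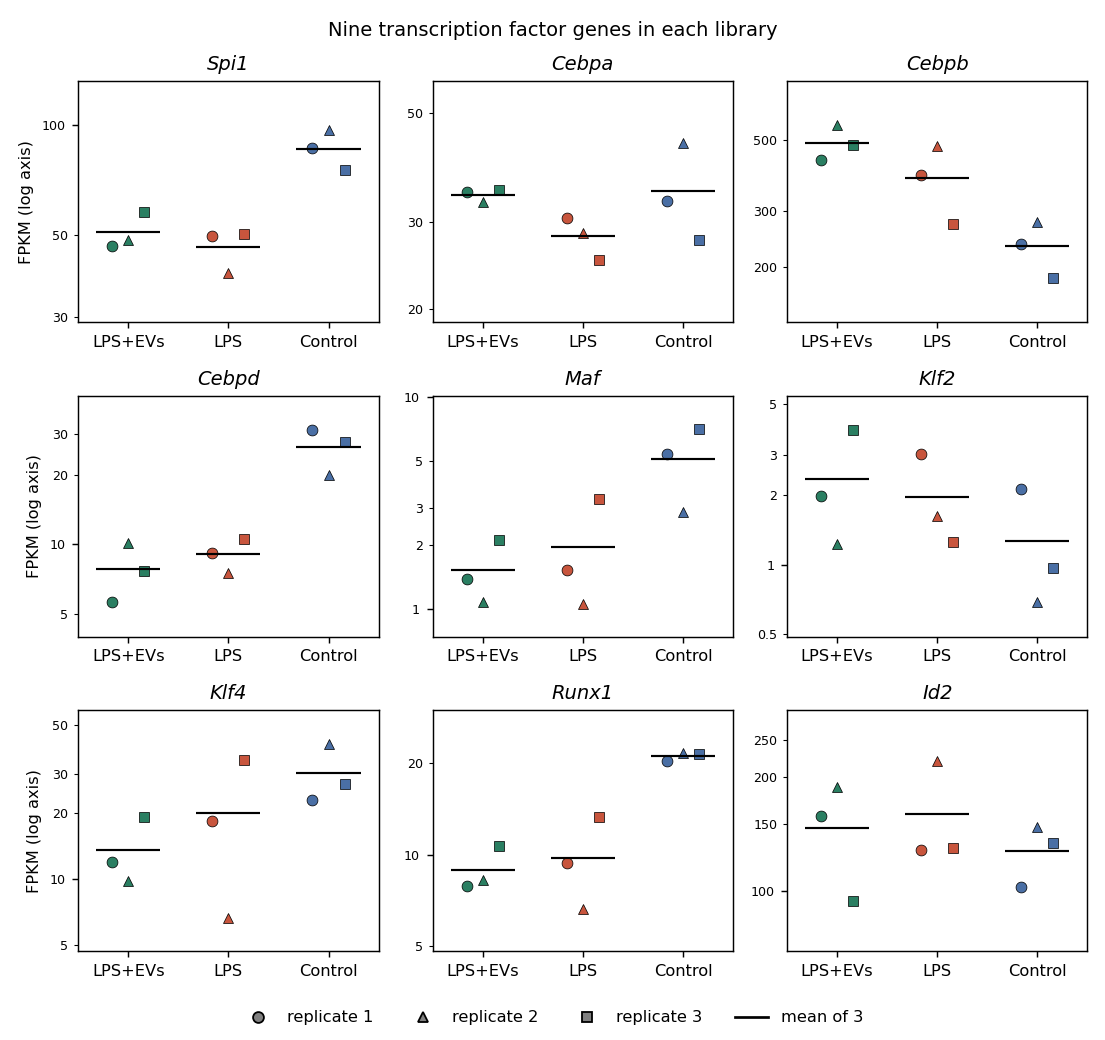
FPKM (log axis) of each factor in LPS+EVs, LPS and Control cultures; each point is 1 library, its shape gives the replicate number and the line is the mean of 3. Spi1, Cebpd and Runx1 libraries of LPS+EVs and LPS all lie below those of Control, and Cebpb libraries of LPS+EVs all lie above them.

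The comparison of LPS with Control asks how these factors differed in cultures given the endotoxin. By limma on log2(FPKM + 1), 4 of the 9 fell (Spi1, Runx1, Cebpd and Maf), 1 rose (Cebpb) and 4 did not pass an adjusted p of 0.05 (Cebpa, Klf2, Klf4 and Id2). Over all 11141 tested genes 28.7% fell and 12.3% rose, in all 41.0%, so a count of 5 of 9 is not far from what the whole table shows. At an unadjusted p under 0.05 the count was the same 5 members, beside 50.2% of all tested genes. The members' median log2 difference was -0.80, against -0.19 over all tested genes. Under median-of-ratios scaling the median of all genes moved to 0 (a shift of about 0.19), the split of calls was 1895 higher and 2307 lower, where the deposited scale gave 1368 higher and 3201 lower, and the same 5 factors passed in the same directions. Log2 differences are given on the deposited scale.

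Spi1 encodes PU.1, the ETS-family factor without which neither macrophages nor dendritic cells form in mice. It measured 49.7, 39.4 and 50.6 FPKM in LPS against 86.7, 97 and 75.2 FPKM in Control. Every LPS library lay below every Control library, a log2 difference of -0.88 (SE 0.15, 95% interval -1.21 to -0.54, adjusted p = 0.00209 by limma). Runx1, a RUNX factor that sets up blood stem cells and lies upstream of Spi1 in mouse haematopoiesis, measured 9.4, 6.63 and 13.3 FPKM in LPS against 20.4, 21.7 and 21.4 FPKM in Control. These groups did not overlap either, and Runx1 fell by 1.09 on the log2 scale (SE 0.22, adjusted p = 0.00495 by limma). Spi1 overlaps a noncoding gene, LOC120101909, which averaged 0.128 FPKM in LPS and 0.239 FPKM in Control. The Spi1 and Runx1 calls held under all 17 alternatives, with log2 differences of -0.97 to -0.67 for Spi1 and -1.32 to -0.85 for Runx1. Groups that did not overlap were found for 3 of the 9 factors (Spi1, Runx1 and Cebpd, all lower in LPS). Over all tested genes the share was 55.1%, with 37.6% lower and 17.5% higher in LPS.

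Of the 3 C/EBP genes Cebpb rose, Cebpd fell and Cebpa did not pass. Cebpb, which encodes the C/EBP factor of inflammatory and emergency responses, rose to 388, 477 and 272 FPKM in LPS, against 237, 277 and 185 FPKM in Control (log2 0.68, SE 0.23, adjusted p = 0.0402 by limma). The lowest LPS library lay just under the highest Control library. The Cebpb call ended without LPS replicate 1 (adjusted p = 0.0996), LPS replicate 2 (0.103), Control replicate 1 (0.0921) or Control replicate 3 (0.138). It also ended without LPS+EVs replicate 1 (0.0534) or replicate 3 (0.0559), which enter through the shared spread, with no filter (0.0836) and with the 6 compared libraries alone (0.0678). Over all alternatives its adjusted p by limma ranged from 0.00196 to 0.138. The lowest came with the replicate number as a block and median-of-ratios scaling, and the block alone gave 0.00522. Cebpd, a C/EBP factor known as an early amplifier of Toll-like receptor signals in mouse macrophages, measured 9.18, 7.53 and 10.6 FPKM in LPS against 31.2, 19.9 and 27.9 FPKM in Control. Its groups did not overlap. It had the largest log2 difference of the 9 in this comparison and fell by 1.42 on the log2 scale (SE 0.23, adjusted p = 0.00181 by limma), and passed under all 17 alternatives. Cebpa, which commits progenitors to the granulocyte and monocyte lineage, measured 30.7, 28.5 and 25.1 FPKM in LPS against 33.2, 43.5 and 27.6 FPKM in Control. Its groups overlapped and it did not pass (log2 -0.28, 95% interval -0.65 to 0.09, adjusted p = 0.201 by limma).

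Within the C/EBP transcripts the share of Cebpb was higher in every LPS+EVs and LPS library than in any Control library. Of the summed FPKM of Cebpa, Cebpb, Cebpd, Cebpe and Cebpg it made up 86.5%, 88.7% and 87.2% in LPS+EVs, 84.8%, 87.9% and 80.2% in LPS, and 70%, 71.7% and 66.4% in Control. The share of Cebpd was 1.13%, 1.62% and 1.39% in LPS+EVs, 2.01%, 1.39% and 3.12% in LPS, and 9.22%, 5.15% and 10% in Control. The ratio of Cebpb to Cebpa was 12.7, 16.7 and 10.8 in LPS against 7.13, 6.38 and 6.71 in Control, a 1.96-fold difference without overlap. An exact permutation test gave a two-sided p of 0.1, the smallest that 3 libraries against 3 allow. The same ratio was 12.5, 16.8 and 13.7 in LPS+EVs, against Control a 2.11-fold difference with the same exact p of 0.1.

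**Figure D2:**
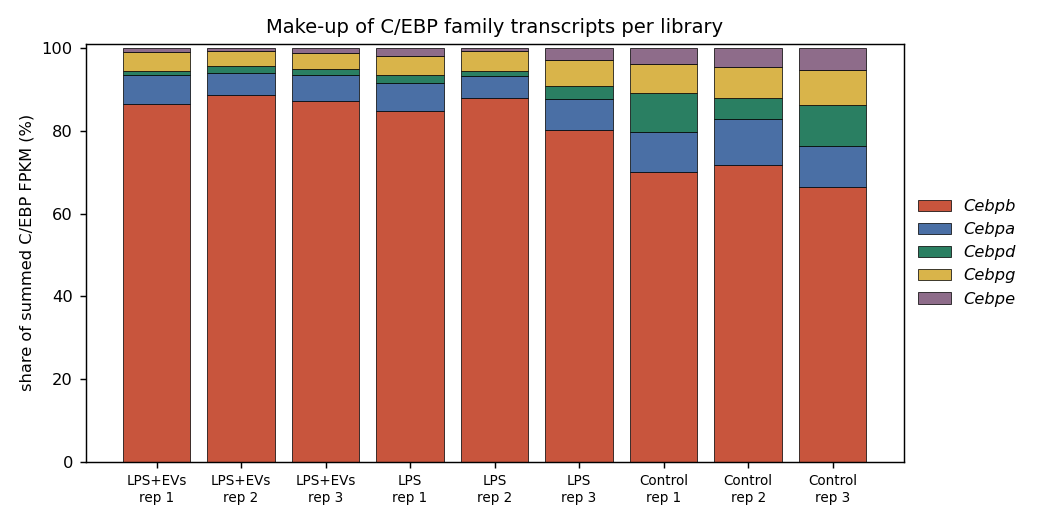
Share (%) of each C/EBP gene in the summed FPKM of 5 family members; each bar is 1 library. Cebpb holds 80.2% to 88.7% in LPS+EVs and LPS libraries and 66.4% to 71.7% in Control libraries.

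RefSeq promoters in the GRCr8 build were at hand for 6 of the 9 genes (Cebpa, Cebpb, Maf, Klf4, Runx1 and Id2). Those of Cebpb, Cebpa, Runx1 and Maf are shown as the 250 bases before the transcription start, 5′ to 3′, since 3 of these genes passed in LPS against Control and Cebpa is a relative of Cebpb that did not. They lie at chr3:176816755-176817004 (Cebpb, plus strand), chr1:96896334-96896583 (Cebpa, plus strand), chr11:45421326-45421575 (Runx1, minus strand) and chr19:60621357-60621606 (Maf, minus strand). Capitals mark matches, on either strand, to the half-site of the cAMP response element (TGACG), the TATA box (TATAAA) and the CCAAT box (CCAAT).
Cebpb: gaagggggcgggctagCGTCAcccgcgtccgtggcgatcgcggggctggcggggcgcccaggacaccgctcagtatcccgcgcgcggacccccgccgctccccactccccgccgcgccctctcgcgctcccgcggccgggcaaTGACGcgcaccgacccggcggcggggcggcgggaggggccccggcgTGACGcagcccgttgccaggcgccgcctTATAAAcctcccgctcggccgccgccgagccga
Cebpa: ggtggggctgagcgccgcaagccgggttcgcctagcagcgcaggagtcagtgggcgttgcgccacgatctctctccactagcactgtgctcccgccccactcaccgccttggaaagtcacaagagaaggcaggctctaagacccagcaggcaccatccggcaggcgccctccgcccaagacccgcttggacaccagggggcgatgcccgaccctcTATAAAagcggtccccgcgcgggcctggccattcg
Runx1: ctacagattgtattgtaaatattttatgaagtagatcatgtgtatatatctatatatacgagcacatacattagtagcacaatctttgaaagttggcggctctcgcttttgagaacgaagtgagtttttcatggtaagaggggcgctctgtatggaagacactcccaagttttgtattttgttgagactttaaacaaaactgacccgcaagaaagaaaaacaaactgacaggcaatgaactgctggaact
Maf: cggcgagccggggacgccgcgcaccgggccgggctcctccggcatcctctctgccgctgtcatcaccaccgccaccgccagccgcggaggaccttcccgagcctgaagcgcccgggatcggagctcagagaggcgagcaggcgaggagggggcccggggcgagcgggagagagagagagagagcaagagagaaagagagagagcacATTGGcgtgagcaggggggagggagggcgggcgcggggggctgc
The Cebpb stretch held 3 TGACG half-sites, starting 234, 107 and 61 bases before the start, and none of the other 5 members' stretches held one, while 18.2% of 33469 rat promoters of that length did. Cebpb, Cebpa and Klf4 held TATAAA, found in 12.9% of all promoters, and Id2 held 3 CCAAT boxes, a motif found in 34% of them. Maf held 1 CCAAT box. The GC box GGGCGG, not capitalised here, occurred in Cebpa, Cebpb, Maf and Id2 and in 30.5% of all promoters. Searches of both strands for TTGCNNAA (C/EBP), GAGGAAGT (PU.1), TGTGGT (RUNX) and the NF-kB consensus found no match in any of the 6, against 9.22%, 2.04%, 14.5% and 0.314% of all promoters. Base composition also differed, with 80% G and C in the Cebpb stretch, 67.2% in Cebpa, 73.2% in Maf and 37.2% in Runx1, against a median of 51.2%. A match is a description of the letters and does not show binding.

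Maf encodes c-Maf, a factor of tissue macrophages and of Il10 expression. It fell to 1.52, 1.05 and 3.3 FPKM in LPS, against 5.36, 2.85 and 7.09 FPKM in Control (log2 -1.05, SE 0.34, adjusted p = 0.038 by limma). LPS replicate 3 lay above Control replicate 2, so the groups overlapped. The Maf call ended without LPS replicate 1 (adjusted p = 0.0996), LPS replicate 2 (0.0971), Control replicate 1 (0.112), Control replicate 3 (0.133) or LPS+EVs replicate 1 (0.0567). It ended as well with no filter (0.0871) and with the 6 compared libraries alone (0.0634), in a range over all alternatives of 0.00118 to 0.133. The lowest of these adjusted p by limma came with the replicate number as a block. In the GRCr8 annotation Maf overlaps Wwox, which had a mean of 0.326 FPKM in LPS and 0.403 FPKM in Control, and no source here says whether reads were counted by strand.

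The remaining 3 factors did not pass. Klf4, a zinc-finger factor of monocytes and of a subset of dendritic cells, measured 18.3, 6.68 and 34.8 FPKM in LPS against 22.8, 41.2 and 27.1 FPKM in Control. The LPS libraries of Klf4 spread widely and replicate 3 lay above 2 of the 3 Control libraries (log2 -0.80, 95% interval -1.97 to 0.36, adjusted p = 0.237 by limma). Klf4 passed as lower without LPS replicate 3 (log2 -1.32, adjusted p = 0.0452) and stood at log2 0.02 (adjusted p = 0.962) with libraries numbered 1 and 3 alone. Klf2, a related factor that holds immune cells quiescent, measured 3.04, 1.63 and 1.25 FPKM in LPS against 2.14, 0.689 and 0.965 FPKM in Control (log2 0.40, 95% interval -0.40 to 1.2, adjusted p = 0.392 by limma). Klf2 overlaps Eps15l1 in the GRCr8 annotation, a gene with 12.3 ± 1.27 FPKM in LPS and 14.2 ± 0.344 FPKM in Control. Id2, the inhibitor of E proteins that conventional dendritic cells of mice need, measured 128, 220 and 130 FPKM in LPS against 103, 147 and 134 FPKM in Control (log2 0.29, 95% interval -0.39 to 0.96, adjusted p = 0.464 by limma). None of these intervals excludes a difference of 1.5-fold in at least 1 direction. The ratio of Klf4 to Klf2 was 6.03, 4.11 and 27.7 in LPS against 10.7, 59.7 and 28.1 in Control (exact permutation p = 0.2, two-sided). In LPS+EVs it was 6.02, 7.99 and 5 and lay wholly below Control, a log2 difference of -2.07 with the smallest exact p of 0.1.

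The comparison of LPS+EVs with LPS asks whether the vesicles changed the response. None of the 9 factors passed, and neither did any other of the 11141 tested genes by limma (0% called). At an unadjusted p under 0.05 the count was 295 genes, or 2.65%, none of them a member, and limma-voom on recovered reads also called 0 genes. The members' median log2 difference was -0.08, against -0.01 over all tested genes. Spi1 measured 46.8, 48.7 and 58 FPKM in LPS+EVs, a log2 difference from LPS of 0.14 (95% interval -0.20 to 0.47). Cebpb measured 431, 555 and 480 FPKM in LPS+EVs, with a log2 difference from LPS of 0.39 (95% interval -0.12 to 0.91) and overlapping groups. Cebpa, at 34.5, 33 and 34.9 FPKM in LPS+EVs, was the only one of the 9 whose libraries all lay above those of LPS (log2 0.28, 95% interval -0.09 to 0.65, adjusted p = 0.999 by limma), and none of the 9 lay wholly below. Groups that did not overlap were found for 6.62% of all tested genes in this comparison, 3.14% higher and 3.48% lower in LPS+EVs. For Cebpd (5.61, 10.1 and 7.67 FPKM in LPS+EVs), Runx1 (7.91, 8.26 and 10.7 FPKM) and Maf (1.37, 1.07 and 2.11 FPKM) the log2 differences from LPS were -0.22, -0.08 and -0.18, with 95% intervals of -0.75 to 0.31, -0.58 to 0.42 and -0.96 to 0.60. Klf4 measured 11.9, 9.77 and 19.1 FPKM in LPS+EVs (log2 -0.31, 95% interval -1.47 to 0.86), Klf2 1.99, 1.22 and 3.83 FPKM (log2 0.14, 95% interval -0.66 to 0.94) and Id2 157, 188 and 94.4 FPKM (log2 -0.13, 95% interval -0.81 to 0.54). All 3 overlapped LPS widely, and the 95% interval of every one of the 9 includes 0.

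**Figure D3:**
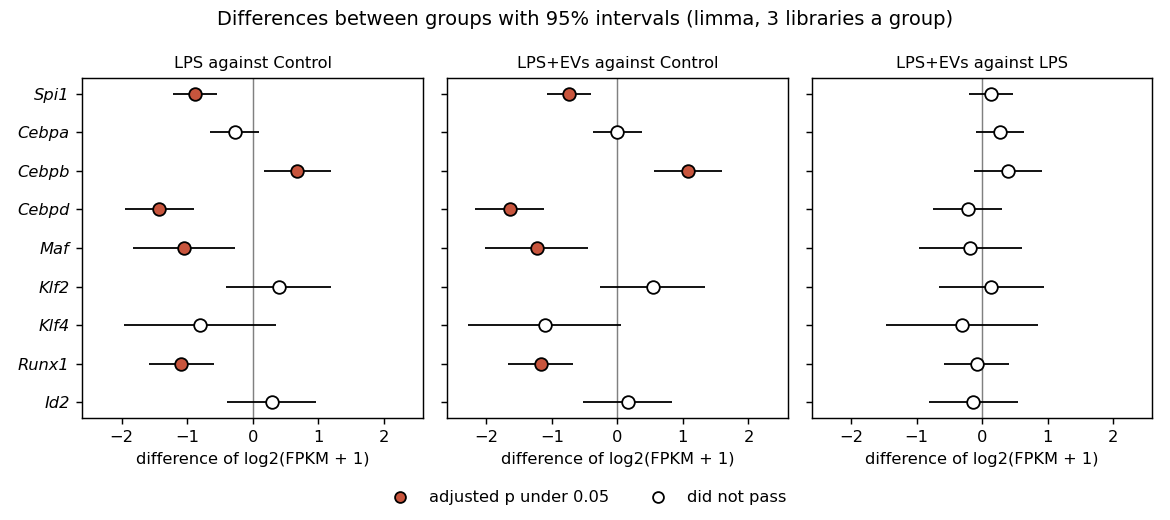
Differences of log2(FPKM + 1) with 95% intervals for the 9 factors in the 3 comparisons; filled points passed an adjusted p of 0.05. The same 5 factors pass in both comparisons with Control, which share the Control libraries, and none passes in LPS+EVs against LPS.

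Set against Control, LPS+EVs cultures had 4 factors that fell and 1 that rose, beside 30.8% and 13.5% of all tested genes (44.3% in all, and 52.8% at an unadjusted p under 0.05, where the members were again 5). These 5 were the factors that passed in LPS against Control, and both comparisons use the same Control libraries. The members' median log2 difference was -0.74, against -0.19 over all tested genes. Cebpd fell by 1.64 on the log2 scale (SE 0.23, adjusted p = 0.000896 by limma), Runx1 by 1.17 (SE 0.22, adjusted p = 0.00332 by limma) and Spi1 by 0.74 (SE 0.15, adjusted p = 0.00437 by limma), all without overlap. Cebpb rose by log2 1.08 (SE 0.23, adjusted p = 0.00563 by limma), and here its groups did not overlap and the call held under all 17 alternatives. Maf fell by 1.23 on the log2 scale (SE 0.34, adjusted p = 0.0191 by limma) with no overlap, but the call ended without LPS+EVs replicate 1 (0.0555), LPS+EVs replicate 2 (0.0618), Control replicate 1 (0.0655) or Control replicate 3 (0.0739), in a range of 0.000539 to 0.0739. Klf4 lay below Control in every LPS+EVs library without passing (log2 -1.11, 95% interval -2.27 to 0.05, adjusted p = 0.109 by limma). Klf4 did pass with the 6 compared libraries alone (0.0174) or without LPS replicate 2 (0.0212), the LPS library with the lowest Klf4 value. The log2 differences of Cebpa, Klf2 and Id2 were -0.00, 0.54 and 0.15, with adjusted p of 1.00, 0.243 and 0.698 by limma. Groups did not overlap for 6 of the 9 factors, 5 lower and 1 higher in LPS+EVs. Over all tested genes the share was 60.2%, with 40.6% lower and 19.6% higher.

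The spread within groups followed the replicate number for some factors. Cebpb and Id2 were highest in the library numbered 2 of every group, and Maf was lowest there. Maf was highest in the library numbered 3 of every group. Klf4 had no such order, with its highest value in the library numbered 2 of Control and its lowest in that of LPS and of LPS+EVs. Libraries of 1 number also shared other traits, the summed dendritic cell markers being 8660, 8300 and 9730 FPKM in those numbered 2 of LPS+EVs, LPS and Control, against 1270 to 3460 FPKM in the other 6. With libraries numbered 1 and 3 alone the same counts passed, 4 lower and 1 higher in LPS against Control and in LPS+EVs against Control and none in LPS+EVs against LPS. The part of cell make-up in these differences was not tested.

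**Figure D4:**
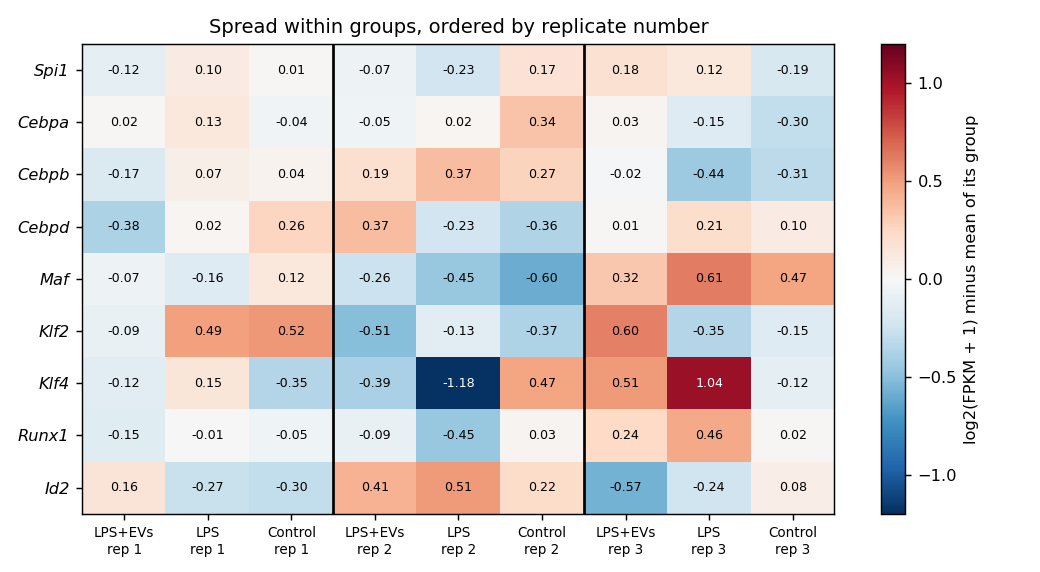
Log2(FPKM + 1) of each factor minus the mean of its group, in libraries ordered by replicate number. Cebpb and Id2 are above their group mean in all 3 libraries numbered 2, and Maf is below it there.

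Relatives and partners of the 9 factors showed calls in both directions in LPS against Control. The counts of each list stand beside 12.3% of all tested genes that rose and 28.7% that fell. In the other C/EBP and related bZIP genes 1 of 7 tested rose and 1 fell (2 and 2 with the replicate number as a block, 2 and 0 with libraries numbered 1 and 3 alone), with Ddit3, the stress-response factor CHOP, at 160 ± 20.2 FPKM in LPS against 81 ± 31.2 FPKM in Control (log2 1.03, adjusted p = 0.00866 by limma). Among ETS genes 2 of 13 rose and 2 fell (3 and 2 under the replicate block, 5 and 2 when median-of-ratios scaling was added to it), with Elk3 higher (log2 1.17) and Fli1, a factor of megakaryocytes and blood stem cells, lower (log2 -0.85). The other higher ETS gene, Etv3, lost its call without LPS replicate 3 (0.0575) or Control replicate 1 (0.0629). Of the other KLF genes 1 of 7 fell, Klf3, a transcriptional repressor (log2 -0.76), and none rose. With the replicate block 2 fell, and under median-of-ratios scaling 1 rose and 1 fell. The Klf3 call ended without Control replicate 2 or 3 (adjusted p = 0.0544 and 0.0783). In the MAF family and BACH partners 1 of 5 rose and none fell (3 rose under median-of-ratios scaling and also with libraries numbered 1 and 3 alone). That one was Maff, a small MAF protein that lacks an activation domain, at 43.4 ± 12.2 FPKM in LPS against 12.5 ± 4.59 FPKM in Control (log2 1.74, adjusted p = 0.00243 by limma). Cbfb, the partner that RUNX proteins need to bind DNA, fell with Runx1, to 13.4 ± 1.77 FPKM in LPS against 23.5 ± 1.4 FPKM in Control (log2 -0.77, adjusted p = 0.00331 by limma). Runx3 rose (log2 0.85, adjusted p = 0.018 by limma), a call that ended without LPS replicate 3 (0.0518), Control replicate 1 (0.0704) or Control replicate 3 (0.061), and these were the only calls among the 4 RUNX genes and partners tested.

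E proteins, which Id2 binds and blocks, were measured beside the ID genes. Of 5 tested genes Tcf3 and Tcf4 fell and Id3 rose. Tcf3, which encodes E2A, was at 10.5 ± 0.447 FPKM in LPS against 20 ± 1.96 FPKM in Control (log2 -0.87, adjusted p = 0.00185 by limma). Id3, an ID protein like Id2, was at 17.7 ± 6.11 FPKM in LPS against 6.19 ± 3.54 FPKM in Control (log2 1.47, adjusted p = 0.0321 by limma), a call that ended without LPS replicate 1 (0.1), Control replicate 2 (0.0981) or Control replicate 3 (0.0663). Tcf4, the factor of plasmacytoid dendritic cells, fell (log2 -0.58, adjusted p = 0.0354 by limma), but not under median-of-ratios scaling (0.204), nor without LPS replicate 1 (0.114), LPS replicate 3 (0.0856), Control replicate 1 (0.0907), Control replicate 2 (0.0997) or Control replicate 3 (0.0876).

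Of 16 other tested factors of myeloid and dendritic lineages, 2 rose and 4 fell in LPS against Control (4 and 4 with the replicate block, 4 and 3 of 15 under median-of-ratios scaling). The 4 that fell include Mef2c, whose call is set aside below. The 2 that rose were Bcl6, a transcriptional repressor, which lost its call without Control replicate 1 or 3 (0.0549 and 0.0522), and Gata2, a factor of blood progenitors, which lost its call without Control replicate 1 (0.0572). Egr2, a zinc-finger factor of macrophages, fell to 8.64 ± 0.574 FPKM in LPS, against 34.9 ± 11.7 FPKM in Control (log2 -1.85, adjusted p = 0.000648 by limma). Ikzf1, the lymphoid and myeloid factor Ikaros, fell to 2.5 ± 0.798 FPKM in LPS, against 8.9 ± 0.366 FPKM in Control (log2 -1.52, adjusted p = 0.00134 by limma). Pparg, the nuclear receptor that IL-4 raises in dendritic cells, fell as well (log2 -1.77, adjusted p = 0.00864 by limma). The last of the 4 lower genes, Mef2c, was at 0.148 to 0.42 FPKM in LPS and 1.02 to 1.69 FPKM in Control. It passed the filter of 1 FPKM through Control libraries alone, so it had to differ and its call is not counted as support. That leaves Egr2, Ikzf1 and Pparg of the 4.

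Targets of the factors, listed from knowledge that comes mainly from mice, did not follow one direction. Of 14 PU.1 targets 2 rose and 7 fell, beside 12.3% and 28.7% of all tested genes (1 and 7 with libraries numbered 1 and 3 alone). Their median log2 difference was -0.41, against -0.19 over all tested genes. Of the 7 that fell, Csf1r lost its call without Control replicate 3 (adjusted p = 0.051 by limma). Csf3r, also a C/EBP target, is among the 7 and lost its call as given below. Of the 2 that rose, Cd68, a lysosomal protein of macrophages, lost its call without LPS+EVs replicate 1 or 2 (0.0558 and 0.0515), LPS replicate 1 or 2 (0.0918 and 0.0957) or Control replicate 1, 2 or 3 (0.135, 0.0705 and 0.0808). Btk, a kinase of B-cell and myeloid receptors, fell to 12.1 ± 1.87 FPKM in LPS, against 33.2 ± 3.24 FPKM in Control. Cybb, the catalytic subunit of the phagocyte NADPH oxidase, fell to 364 ± 56.9 FPKM in LPS, against 679 ± 86.3 FPKM in Control, and Itgam, the integrin CD11b, rose to 255 ± 28.2 FPKM in LPS, against 140 ± 3.33 FPKM in Control. Adjusted p by limma was 0.000711, 0.00178 and 0.000495 for Btk, Cybb and Itgam. Tlr4, the receptor of the endotoxin itself, fell by 1.90 on the log2 scale (adjusted p = 0.00531 by limma). Of 10 Maf targets 2 rose and 7 fell, with a median of -2.42 (3 and 7 with libraries numbered 1 and 3 alone or with the replicate block, scaled by median-of-ratios or not). Mrc1, the mannose receptor, fell to 9.25 ± 0.828 FPKM in LPS, against 165 ± 44.5 FPKM in Control (log2 -3.98, adjusted p = 3.63e-06 by limma), and C1qc, a chain of complement C1q, fell by 3.07 on the log2 scale (adjusted p = 0.0033 by limma). The 2 that rose were Gas6, a ligand of the receptor Mertk (log2 1.31, adjusted p = 0.000327 by limma), and Il10, the cytokine gene that c-Maf is known to drive in mouse macrophages. Il10 reached 1 FPKM in 2 LPS+EVs and 3 LPS libraries and in 0 Control libraries, so it entered the test through the groups where it was higher and its call is not counted as support. That leaves Gas6 alone of the 2.

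C/EBP targets changed in both directions. Of 16 listed genes 15 were in the deposited table and 11 were tested. Of these 11, 8 rose and 3 fell, beside 12.3% and 28.7% of all tested genes, with a median of 4.65. Mpo, Elane, Prtn3 and Ltf, also among the neutrophil markers, missed the filter, so the median leaves them out. Their means were 0.0026, 0.0883, 0 and 0.00313 FPKM in LPS against 0.145, 0.371, 0.0325 and 0.206 FPKM in Control. Nos2, the inducible nitric oxide synthase, Il1b, Csf3 and Il6 rose by log2 8.33, 5.48, 4.79 and 5.03 (adjusted p of 0.000132 or less each by limma). The 3 that fell were Csf3r, Lyz2 and Cebpe (2 with libraries numbered 1 and 3 alone, and 2 under median-of-ratios scaling). Csf3r, the G-CSF receptor, had an adjusted p of 0.0371 by limma and lost its call without LPS+EVs replicate 1 (0.0555) or LPS replicate 1, 2 or 3 (0.051, 0.077 and 0.0865), and it missed the filter without LPS+EVs replicate 3, Control replicate 1 or Control replicate 3. Lyz2, a lysozyme of macrophages and neutrophils, had an adjusted p of 0.0404 by limma and lost its call without LPS+EVs replicate 1 (0.0595), LPS replicate 1 or 3 (0.119 and 0.11) or Control replicate 1, 2 or 3 (0.103, 0.115 and 0.0648). Cebpe, the C/EBP gene of granulocyte maturation, was at 7.5 ± 3.28 FPKM in LPS against 15.3 ± 2.45 FPKM in Control (log2 -1.01, adjusted p = 0.0288 by limma). Its call ended without Control replicate 1 (0.0558), 2 (0.0934) or 3 (0.0728) and with libraries numbered 1 and 3 alone (0.0557), and the summed neutrophil markers were lower in LPS as well (1.8 to 6.58 FPKM against 30.9 to 256 FPKM in Control), whose part in the result was not tested. Of the KLF2 targets S1pr1, a receptor that guides cells out of lymphoid tissue, rose (log2 1.09, adjusted p = 0.0182 by limma). S1pr1 lost its call without LPS replicate 3, Control replicate 1 or Control replicate 2 (0.0502, 0.0544 and 0.0665). Of 7 listed E protein targets of plasmacytoid dendritic cells 6 were in the deposited table and 2 were tested. Irf7 rose (log2 2.96, adjusted p = 0.00261 by limma) and Tlr7 did not pass (log2 0.33), and these 2 do not stand for the list. In LPS+EVs against LPS no gene of any of these lists passed by limma. In LPS+EVs against Control, which shares the Control libraries, 2 PU.1 targets rose and 6 fell, beside 13.5% and 30.8% of all tested genes. These PU.1 counts were 3 and 5 under median-of-ratios scaling, 2 and 7 with the replicate block and 4 and 6 with both. In the same comparison 2 Maf targets rose and 7 fell, and 8 C/EBP targets rose and 1 fell (8 and 3 with the replicate block). The 2 higher Maf targets were again Gas6 and Il10, and the Il10 call is not counted as support there either.

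**Figure D5:**
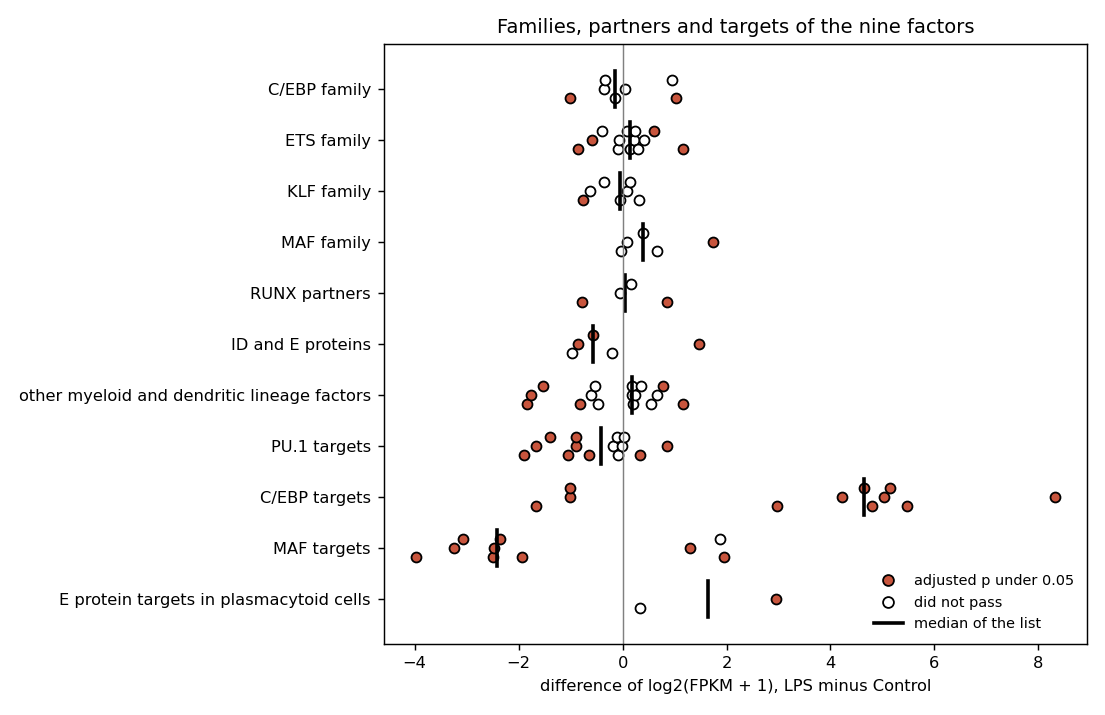
Differences of log2(FPKM + 1), LPS minus Control, for the tested genes of the lists other than KLF2 targets; each point is 1 gene, filled where it passed an adjusted p of 0.05, and the bar is the list's median. Maf targets lie mostly below 0 (median -2.42) and C/EBP targets mostly above it (median 4.65), while the families lie on both sides. The points of Mef2c and Il10 are filled, though these genes entered the test through the groups where they were higher.

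Likeness of pattern was described by Pearson's r of log2(FPKM + 1) over the 9 libraries, which share treatment and replicate number. The pattern of Spi1 was nearest to that of Clpp, a mitochondrial protease (r = 0.992), and that of Runx1 to Ankrd27 (r = 0.996) and Bend3 (r = 0.994). Maf was nearest to Vnn3 (r = 0.989) and Stab1, a scavenger receptor on the list of Maf targets (r = 0.981). The Stab1 call in LPS against Control ended without LPS replicate 1 (0.0553), Control replicate 1 (0.0578) or Control replicate 3 (0.0661). Stab1 had means of 1.19 FPKM in LPS+EVs, 2.39 FPKM in LPS and 14.1 FPKM in Control. Cebpb was nearest to Lin37 (r = 0.986), a subunit of a cell-cycle repressor complex, with means of 31.4 FPKM in LPS+EVs, 23.7 FPKM in LPS and 12.3 FPKM in Control, and Cebpd to Fgd4 (r = 0.978). For Cebpa, Klf2, Klf4 and Id2 the nearest genes were Capn10 (r = 0.907), Gpx4 (r = 0.949), Dus3l (r = 0.985) and MGC105567 (r = 0.969).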

How the data were processed

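RNA was sequenced from 9 cultures in 3 groups taken from the sample labels. Tools named in the submitters' processing notes are HISAT2, HTSeq, fastp and R 3.2.0, with mRatBN7.2 as the genome build; settings, strand handling and annotation are not given in the sources used here. The authors deposited FPKM for 20442 genes. The FPKM steps of all 18833 genes seen in at least 2 libraries gave whole reads (within 0.002 reads, up to a whole factor common to a gene), totalling 32148519 to 39407116 per library. A count of 3 reads in 1 kb is worth 0.0761 to 0.0933 FPKM here, which covers counting error alone.

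The 11141 genes that reached 1 FPKM in 3 or more libraries, all 9 members among them, were tested with limma-trend (limma 3.58.1, R 4.3.3) on log2(FPKM + 1), 1 mean per group over all 9 libraries, two-sided, with Benjamini-Hochberg adjustment over all tested genes within each comparison and a threshold of 0.05. Klf2 reached 1 FPKM in 7 libraries and the other 8 members in 9. The procedure was tested on simulated data. Ratios were tested by exact permutation (scipy 1.17.1). Figures used matplotlib 3.10.9.

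The members and lists were chosen with earlier results of these data known. Named genes are the 9 members, up to 4 genes per list with the smallest adjusted p in LPS against Control, and the 2 genes nearest to each member by correlation; further list genes were named after their values were seen. After removal of group means, libraries of 1 replicate number correlated at 0.284 to 0.863 across groups and those of different numbers at -0.745 to 0.426. These ranges overlap, and the labels do not say that the numbers pair the cultures. Removing means in groups of 3 also lowers correlations of different numbers where those of 1 number are positive. The main fit and the permutation tests did not use the numbers. Alternatives were median-of-ratios scaling, 0.1 in place of 1 added, no filter, the 6 compared libraries alone, a replicate block with and without that scaling, limma-voom on recovered reads and leaving out each library in turn. Libraries numbered 1 and 3 alone was added after seeing the data. Promoter sequences are RefSeq's in GRCr8, matched by gene ID. Counts of the KLF2 target list are not reported here.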

Additional observations from a re-analysis of the deposited data

How the results depend on the processing

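Each of 27 values (9 factors in 3 comparisons) was computed under 17 alternatives. Of 459 values 421 kept direction and side of the threshold, 19 kept direction but no longer passed (Cebpb and Maf), 3 newly passed (Klf4) and 16 changed sign, all of factors that did not pass in that comparison. The replicate block changed no call of a member: with the replicate block, with or without median-of-ratios scaling, 5 factors passed in LPS against Control, 0 in LPS+EVs against LPS and 5 in LPS+EVs against Control. Genes passing under the block numbered 5862, 0 and 6146 in those comparisons.

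In LPS against Control 3 factors passed with no filter and 3 with the compared libraries alone; leaving out each library gave 3 to 6, and 2775 to 4526 of all genes (2775 without Control replicate 1 and 3006 without Control replicate 3). Leave-one-out gave 0 to 1 genes in LPS+EVs against LPS (1 without LPS replicate 2) and 3239 to 5776 in LPS+EVs against Control (3239 without Control replicate 1). Klf4 in LPS against Control was 0.022 with libraries numbered 1 and 3 alone. Cebpa in LPS+EVs against Control, -0.00026 as reported, was 0.22 with median-of-ratios scaling, alone or with the block, 0.00036 with 0.1 added, 0.0034 with limma-voom and 0.19 with libraries numbered 1 and 3 alone, and -0.15 to 0.17 in leave-one-out. Id2 there was -0.052 to 0.44. In LPS+EVs against LPS leave-one-out gave log2 differences of -0.16 to 0.40 for Klf2, -0.34 to 0.15 for Id2, -0.41 to 0.13 for Maf, -0.90 to 0.21 for Klf4 and -0.31 to 0.15 for Runx1. The cause of these changes was not tested. Klf2 rested on the fewest reads of the 9, 24 to 130 per library.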
